A study of Mus musculus with 4 samples.

Results

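Neutrophil genes were examined in lung RNA of mice treated with amiodarone, dabigatran or both drugs. A set of 35 genes was taken by symbol from a table of 17780 genes, and all 35 were found in it. The set was divided by where the protein acts, into 4 azurophil granule genes, 8 specific and tertiary granule genes, 6 genes of cytosolic and secreted proteins, 12 surface receptor genes of mature neutrophils and 5 genes of enzymes and metabolism. Of the 35 genes, 30 had 10 or more reads in at least 1 library, and ratios are given for those alone. Prtn3, Ly6g and Acod1 passed this limit only through the libraries with amiodarone, so a high ratio of these 3 genes is partly set by the limit. Mpo, Elane, Ctsg, Camp and Itgb2l stayed below it in every library.

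The mice were males of strain C57BL/6 in the labels and C57BL/6J in the methods, bought at 6 to 7 weeks of age. They were dosed orally 5 times per week with the vehicle (0.5% carboxymethylcellulose), with amiodarone at 300 mg per kg per day, with dabigatran etexilate at 60 mg per kg per day, or with both drugs together. Amiodarone is an anti-arrhythmic agent known for lung toxicity, and dabigatran inhibits thrombin. The labels give 28 days of treatment and the methods of the study give collection on day 26. Lung poly(A) RNA was sequenced from 1 library per group (4 libraries in all), and the labels name no further animals, so no group has a replicate and no test across animals was possible.

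Neutrophils are short-lived white blood cells that are made in the bone marrow. Their granules are filled in order during maturation: promyelocytes transcribe the azurophil granule proteases and myeloperoxidase, later precursors transcribe the specific granule proteins, and these transcripts are largely shut off before the cell enters the blood. Mature neutrophils carry few granule transcripts and instead express receptors for chemokines, formyl peptides and G-CSF, with very high levels of the S100a8 and S100a9 messages. In neutrophils alone, the balance between the groups would therefore separate marrow-type precursors from mature cells. Several genes of the set are also active in other lung cells: Lcn2, Ltf and Hp in epithelium, Lrg1 in endothelium, Hdc in mast cells and basophils, and Alox5ap, Acod1, Clec4d, Clec4e and Hcar2 in macrophages. These are examples, and a gene not named here is not thereby limited to neutrophils.

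The 250 bases before a transcript start in the RefSeq window table are shown for 4 genes that were higher with amiodarone and for 2 granule genes of precursors, because C/EBP factors and PU.1 are the known drivers of both programmes. The sequences are from RefSeq on GRCm38.p6, in lower case, 5′ to 3′ on the strand of the gene. Capitals mark the C/EBP motif TTGCNNAA and the PU.1 motif GAGGAA on either strand, and no marked matches overlap. For Cxcr1 and Csf3r this start lies inside the gene span given with their values, so part of the Cxcr1 window and the whole Csf3r window are within the annotated gene. The windows are chr1:74194632-74194881 on the minus strand for Cxcr1, chr4:126024409-126024658 on the plus strand for Csf3r, chr3:90668821-90669070 on the plus strand for S100a8, chr3:90695722-90695971 on the minus strand for S100a9, chr9:110419558-110419807 on the plus strand for Ngp and chr11:87793534-87793783 on the plus strand for Mpo.
Cxcr1: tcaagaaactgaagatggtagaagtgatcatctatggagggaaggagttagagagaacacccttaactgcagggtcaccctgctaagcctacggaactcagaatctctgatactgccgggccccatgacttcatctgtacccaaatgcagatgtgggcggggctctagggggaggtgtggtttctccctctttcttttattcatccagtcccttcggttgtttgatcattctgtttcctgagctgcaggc
Csf3r: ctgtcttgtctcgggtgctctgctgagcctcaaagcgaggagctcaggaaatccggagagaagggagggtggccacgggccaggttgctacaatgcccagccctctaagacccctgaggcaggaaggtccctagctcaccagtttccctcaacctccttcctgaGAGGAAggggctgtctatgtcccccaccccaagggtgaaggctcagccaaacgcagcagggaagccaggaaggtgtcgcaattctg
S100a8: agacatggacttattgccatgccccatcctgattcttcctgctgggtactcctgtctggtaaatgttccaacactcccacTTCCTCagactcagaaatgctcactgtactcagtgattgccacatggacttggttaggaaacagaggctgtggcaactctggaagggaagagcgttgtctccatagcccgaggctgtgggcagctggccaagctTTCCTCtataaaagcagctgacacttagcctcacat
S100a9: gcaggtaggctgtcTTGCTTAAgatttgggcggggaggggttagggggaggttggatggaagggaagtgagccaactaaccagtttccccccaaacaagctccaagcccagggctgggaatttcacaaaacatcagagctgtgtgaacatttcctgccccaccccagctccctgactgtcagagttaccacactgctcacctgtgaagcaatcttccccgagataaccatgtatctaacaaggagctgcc
Ngp: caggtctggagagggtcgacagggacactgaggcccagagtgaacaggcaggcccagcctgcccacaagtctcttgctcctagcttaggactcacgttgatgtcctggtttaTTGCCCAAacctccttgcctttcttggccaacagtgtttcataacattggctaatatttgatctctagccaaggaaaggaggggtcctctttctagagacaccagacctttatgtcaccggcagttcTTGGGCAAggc
Mpo: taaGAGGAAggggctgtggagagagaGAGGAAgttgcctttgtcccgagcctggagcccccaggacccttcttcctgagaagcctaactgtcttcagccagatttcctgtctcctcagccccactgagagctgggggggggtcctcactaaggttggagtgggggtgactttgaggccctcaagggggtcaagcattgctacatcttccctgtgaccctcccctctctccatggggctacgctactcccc

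Csf3r held 1 PU.1 match, 86 bases before its start, and S100a8 held 2, at 170 and 36 bases. S100a9 held 1 C/EBP match at 236 bases. Ngp held 2 C/EBP matches at 138 and 11 bases, and Mpo held 2 PU.1 matches at 247 and 224 bases. Neither motif occurred in the Cxcr1 window. Over the set, windows were found for 30 of the 35 genes (31 windows, since Ly6g has 2 starts). The PU.1 motif was in 19 of these 31 windows and in 23.3% of all 32841 windows of the same length, and the C/EBP motif was in 7 of the 31 and in 9.57% of all. The STAT motif TTCNNNGAA, the type of site used downstream of the G-CSF receptor, was in 4 of the 31 (Ctsg, Il1r2, Trem1 and Fpr2) and in 7.02% of all. Matches were present in granule genes and receptor genes alike, and they describe letters in a window and not binding.

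Estimated reads on genes ranged from 17498486 to 18903401 per library. Levels are given in FPKM, which corrects for transcript length. Beside each ratio stands an exact Clopper-Pearson 95% interval, which rests on the read counts of both libraries and covers counting error only, not the difference between animals. Where 4 values are listed without their libraries, they stand in the order vehicle, amiodarone, dabigatran, combination. A ratio is called beyond counting error where this interval excludes 1. Markers of alveolar epithelium and endothelium were present in every library, as summed FPKM from 27732 to 29813 and from 936 to 1175. In bulk lung RNA, fewer neutrophils and less RNA per neutrophil cannot be told apart.

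Amiodarone alone gave at least a 2-fold higher level than vehicle in 20 of the 35 neutrophil genes, and none was at least 2-fold lower. Among all 15161 genes with a ratio, 3.57% were at least 2-fold higher and 3.54% were at least 2-fold lower. The set was chosen with earlier results of these data known. Its counts beside those of all genes are therefore not an independent test in any pair of libraries. The median log2 ratio of the 30 neutrophil genes with a ratio was 1.68, and that of all genes was -0.06. Between amiodarone + dabigatran and dabigatran, a pair of libraries that shares none with the first, 21 of the 35 were at least 2-fold higher (2.87% of all 15154 genes) and 1 was at least 2-fold lower (2.36% of all genes), with a median log2 ratio of 1.63 against -0.02 for all genes. In both pairs 19 of the 35 genes were at least 2-fold higher, as were 233 of all genes (1.54%). Each of these counts of neutrophil genes at least 2-fold higher includes Prtn3, Ly6g and Acod1. These 3 genes passed the read limit only through the libraries with amiodarone, so their part in the counts is partly set by the limit. Lrg1 was at least 2-fold higher only in the amiodarone and vehicle pair, and Cd177 and Alox5ap only in the other pair. The groups of genes differed: all 6 cytosolic and secreted genes and 10 of 12 surface receptor genes reached 2-fold with amiodarone alone, but only 1 of 8 specific and tertiary granule genes did. Of these 8 granule genes, 6 had a ratio, and among the 6 are Lcn2, Ltf and Hp, which epithelium also makes. The contrast covers only granule genes of the set. Of 19 further granule and cytosol genes, 6 were at least 2-fold higher (3.57% of all genes), and none 2-fold lower (3.54%). The granule gene Mmp8 was among these, at 6.15 (4.71 to 8.15) with amiodarone alone. Whether the contrast reflects the maturity of neutrophils, or the choice of granule genes, was not tested.

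**Figure D1:**
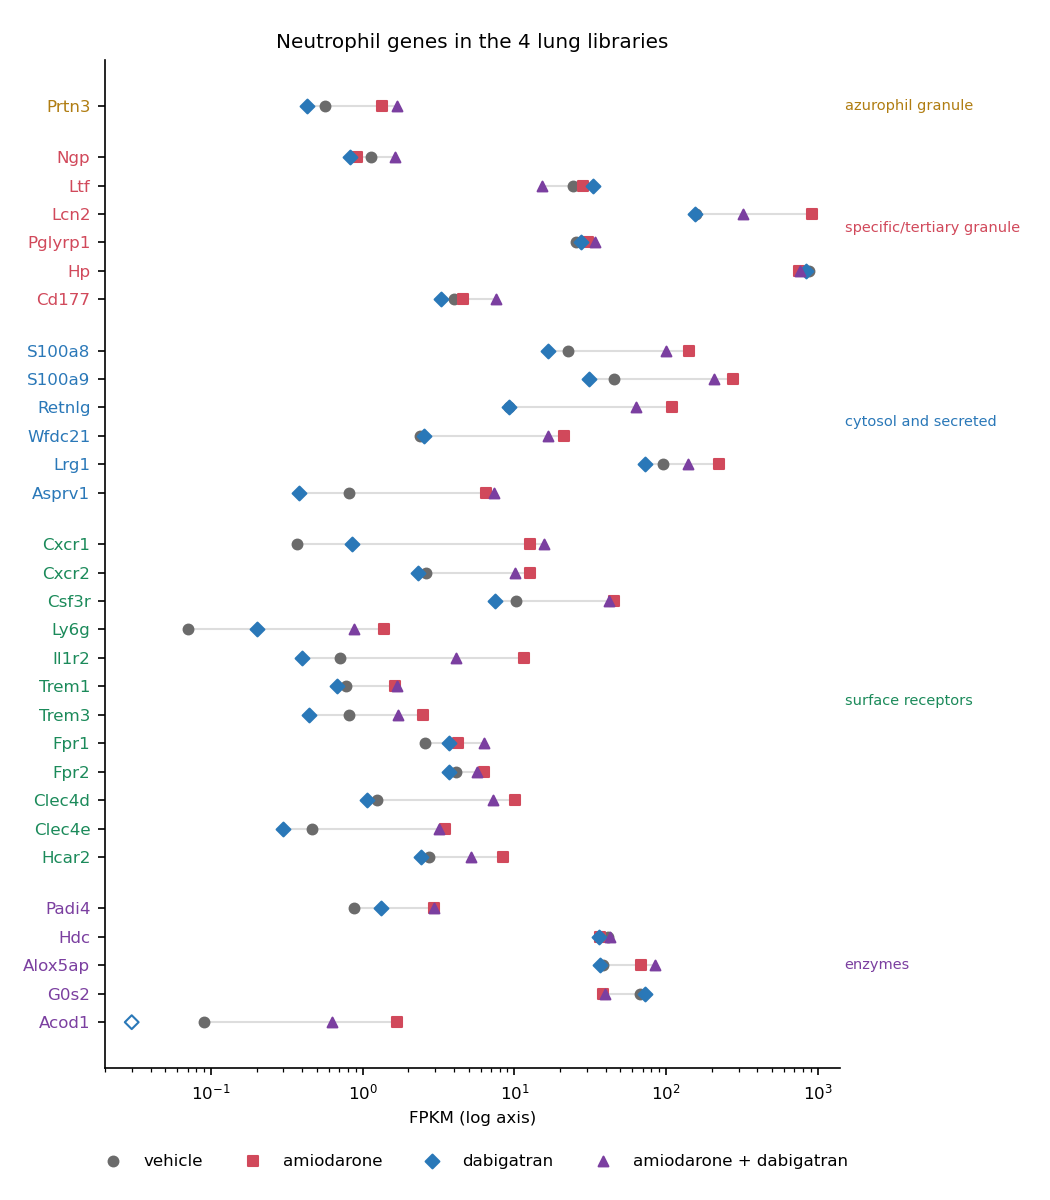
FPKM on a log axis of the 30 neutrophil genes with 10 or more reads in at least 1 library, with 1 point for each of the 4 libraries and the genes grouped by where the protein acts. An open point marks Acod1 at 0 reads with dabigatran, drawn at the left edge, and the vehicle point of Lcn2 lies under the dabigatran point. In most cytosolic, secreted and receptor genes the libraries with amiodarone lie to the right of those without it, while the points of Pglyrp1 and Hp lie close together.

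**Figure D2:**
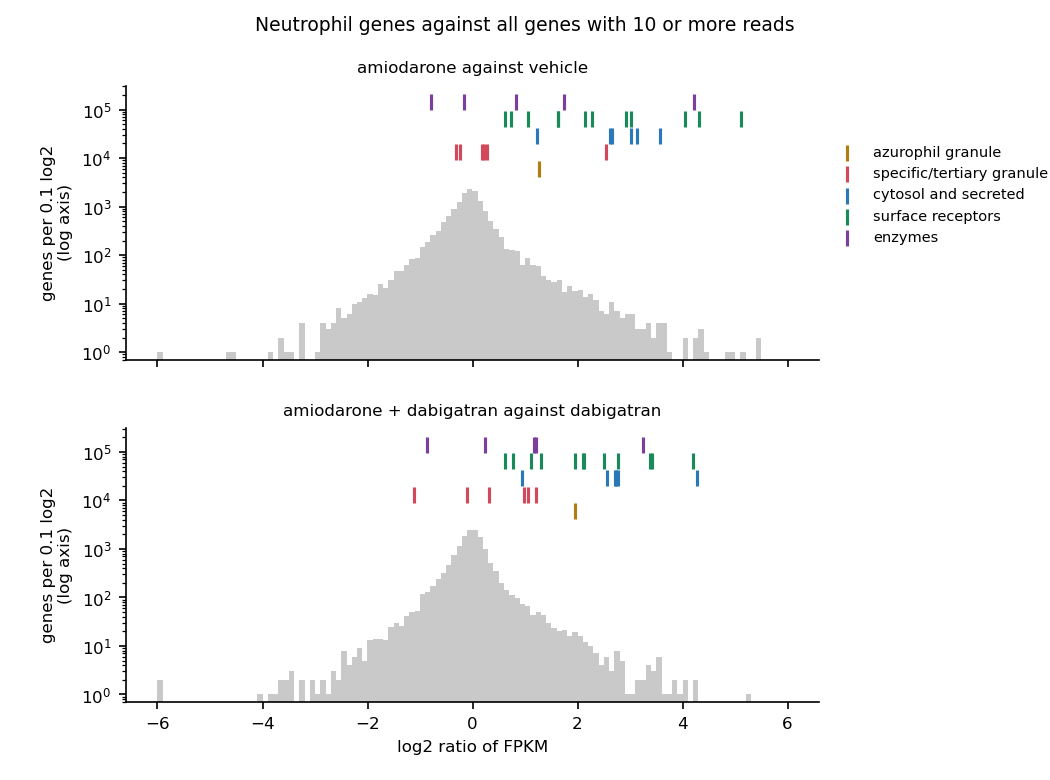
Log2 ratio of FPKM for all genes with 10 or more reads in at least 1 library (grey bars, number of genes per 0.1 log2 on a log axis, values beyond 6 drawn at 6), with the neutrophil genes as coloured ticks by group above, at heights that carry no value. The receptor and the cytosolic and secreted ticks all lie right of 0 in both pairs of libraries, and the specific and tertiary granule ticks lie on both sides of 0.

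The azurophil granule genes were close to absent. Mpo, which encodes myeloperoxidase, had 0 reads with vehicle and 2 with dabigatran, against 3 under amiodarone and 2 under the combination. Elane, which encodes neutrophil elastase, had 1 read with vehicle and 0 in each of the other 3 libraries. Ctsg, which encodes cathepsin G, had 1 read with amiodarone and 0 in each other library. A count of 0 allows up to 3 reads, so differences in these 3 genes were not detectable at this depth, and no ratio is given. Together they held 1, 4, 2 and 2 reads. Prtn3, which encodes proteinase 3 and lies on chromosome 10 from 79879667 to 79883174 next to Elane, had 9 reads with vehicle and 7 with dabigatran, against 23 under amiodarone and 29 under the combination. Both libraries with amiodarone were thus above both without it, at ratios of 2.39 (1.07 to 5.88) and 3.88 (1.66 to 10.5). In FPKM it stayed between 0.43 and 1.67.

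The specific and tertiary granule genes covered a wide range of levels, and Camp and Itgb2l stayed under 10 reads. Camp, the gene of the antimicrobial peptide cathelicidin, had 2, 3, 6 and 3 reads. Itgb2l, an integrin gene of immature neutrophils that overlaps the coding gene Igsf5, had 6, 9, 4 and 9 reads. Ngp, which encodes neutrophilic granule protein, on chromosome 9 from 110419808 to 110423012, was at 1.14 FPKM with vehicle (22 reads), 0.92 with amiodarone (19 reads), 0.82 with dabigatran (16 reads) and 1.63 with the combination (34 reads). Amiodarone alone left it within counting error of vehicle, at a ratio of 0.807 (0.413 to 1.56), and the combination was above dabigatran at 1.99 (1.07 to 3.86). All 3 are transcribed by neutrophil precursors, and none exceeded 34 reads in any library.

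Lcn2, which encodes the iron-siderophore binding protein lipocalin 2, lies on chromosome 2 from 32384637 to 32387739. It was at 157 FPKM with vehicle and 155 with dabigatran, against 921 under amiodarone and 320 under the combination. It was the only gene of its group at least 2-fold higher with amiodarone alone, at 5.86 (5.60 to 6.13), and the combination was above dabigatran at 2.07 (1.97 to 2.18). Ltf, the lactoferrin gene, was at 24.4, 28.2, 33.2 and 15.2 FPKM, with the combination lowest. Its ratio was 1.15 (1.07 to 1.25) for amiodarone against vehicle and 0.459 (0.421 to 0.50) for the combination against dabigatran. The airway defence gene Bpifb1 was also lowest with the combination, at 115, 101, 179 and 67.0 FPKM, and all 6 airway epithelium markers had ratios below 1 in the combination against dabigatran. The summed airway marker level was 126696, 75620, 101417 and 99256 FPKM, of which Scgb1a1 alone was 124168, 73994, 99032 and 97786. The sum therefore mainly follows Scgb1a1 and not the other airway markers. The part of airway epithelium in the Ltf values was not tested.

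The other 3 genes of this group were similar across libraries or higher with the combination. Pglyrp1, a peptidoglycan recognition protein of granules, was at 25.6 FPKM with vehicle and 27.4 with dabigatran, against 30.7 under amiodarone and 34.1 under the combination, with ratios of 1.2 (1.02 to 1.41) and 1.24 (1.07 to 1.45) in the amiodarone pairs. Hp, the haptoglobin gene, was at 881, 749, 829 and 767 FPKM, so it was lower in both libraries with amiodarone than in the library each was compared with, at 0.850 (0.833 to 0.867) and 0.924 (0.906 to 0.943). Cd177, a surface and granule protein that binds proteinase 3 in human cells, was at 4.02, 4.55, 3.27 and 7.55 FPKM. It was within counting error with amiodarone alone at 1.13 (0.925 to 1.39) and higher with the combination than with dabigatran at 2.31 (1.91 to 2.80). Over the 6 genes of the group with a ratio, the median log2 ratio was 0.19 for amiodarone against vehicle and 0.65 for the combination against dabigatran.

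The cytosolic and secreted genes were all at least 2-fold higher with amiodarone than with vehicle. S100a8 and S100a9 encode the subunits of calprotectin, the major cytosolic protein of mature neutrophils, and lie close together on chromosome 3, S100a8 from 90669071 to 90670034 and S100a9 from 90692630 to 90695721. S100a8 was at 22.4 FPKM with vehicle and 16.7 with dabigatran, against 141 under amiodarone and 99.4 under the combination. S100a9 was at 45.0, 276, 31.2 and 207 FPKM. Both libraries with amiodarone were well above both without it. The ratios in the 2 pairs were 6.31 (5.25 to 7.65) and 5.94 (4.80 to 7.41) for S100a8, and 6.14 (5.49 to 6.87) and 6.65 (5.83 to 7.60) for S100a9.

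Retnlg, which encodes a resistin-like protein of mouse neutrophils, lies on chromosome 16 from 48872608 to 48874498. It was at 9.24 FPKM with vehicle and 9.22 with dabigatran, against 110 under amiodarone and 63.5 under the combination. It gave the highest ratio of its group with amiodarone alone, 11.9 (9.55 to 14.9), and 6.88 (5.52 to 8.68) in the other pair. Wfdc21, a secreted protein with a whey acidic protein domain, was at 2.40, 21.2, 2.52 and 16.6 FPKM, with ratios of 8.83 (5.26 to 15.8) and 6.60 (3.96 to 11.7). Asprv1, a retroviral-like aspartic protease, was at 0.81, 6.52, 0.38 and 7.31 FPKM. Its ratio was 8.05 (5.11 to 13.3) with amiodarone alone and 19.2 (10.2 to 40.7) for the combination against dabigatran, where the dabigatran library held 10 reads. Lrg1, a leucine-rich glycoprotein that blood vessels also make, was at 94.7, 223, 72.0 and 139 FPKM, with lower ratios of 2.35 (2.23 to 2.47) and 1.93 (1.82 to 2.05). The median log2 ratio of the 6 genes was 2.83 in the amiodarone and vehicle pair and 2.73 in the other.

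The surface receptor genes of mature neutrophils were higher beyond counting error in all 12 cases in both pairs, where 18.0% and 17.9% of all genes were. Ly6g, among the 12, passed the read limit only through the libraries with amiodarone, so its part in this count is partly set by the limit. Cxcr1 and Cxcr2, neighbours on chromosome 1, encode the receptors that guide neutrophils to CXC chemokines. Cxcr1, from 74191785 to 74194708, was at 0.37 FPKM with vehicle (7 reads), 12.7 with amiodarone (268 reads), 0.85 with dabigatran (17 reads) and 15.6 with the combination (330 reads). Its ratio of 34.4 with amiodarone alone was the highest of the set, with a wide interval of 16.5 to 86.5 because of the 7 reads, and the other pair gave 18.4 (11.3 to 32.0). Cxcr2, from 74153994 to 74161246, was at 2.62, 12.8, 2.33 and 10.02 FPKM. It was higher at 4.87 (4.05 to 5.89) and 4.30 (3.53 to 5.26). Csf3r, the receptor for the granulocyte growth factor G-CSF, on chromosome 4 from 126023441 to 126044975, was at 10.3, 45.5, 7.40 and 42.0 FPKM, and so was the most abundant receptor of the set in every library. Its ratios were 4.42 (4.01 to 4.89) and 5.67 (5.07 to 6.36).

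Ly6g, the surface protein by which mouse neutrophils are sorted, on chromosome 15 from 75155261 to 75159128, had 1 read with vehicle and 3 with dabigatran, against 22 under amiodarone and 14 under the combination. Few reads make its ratios of 19.9 (3.21 to 820) and 4.35 (1.21 to 23.6) imprecise, but both libraries with amiodarone held more reads than both without it. Il1r2, the decoy receptor for interleukin-1, on chromosome 1 from 40084692 to 40125230, was at 0.71 FPKM with vehicle and 0.40 with dabigatran, against 11.7 under amiodarone and 4.15 under the combination. Its ratios were 16.4 (9.93 to 29.1) and 10.4 (5.42 to 22.3).

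The C-type lectin genes Clec4d and Clec4e, neighbours on chromosome 6, encode receptors for microbial glycolipids. Clec4d was at 1.25, 10.1, 1.06 and 7.26 FPKM. Clec4e was at 0.46, 3.49, 0.30 and 3.19 FPKM. The ratios of Clec4d and Clec4e were 8.07 (5.45 to 12.4) and 7.59 (4.75 to 12.8) with amiodarone alone, and 6.85 (4.46 to 11.0) and 10.6 (6.02 to 20.5) in the other pair. Hcar2, the niacin receptor, was at 2.72, 8.35, 2.41 and 5.19 FPKM, with ratios of 3.07 (2.42 to 3.93) and 2.15 (1.65 to 2.83).

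The Trem genes, which encode amplifiers of inflammatory signals, followed. Trem1 was at 0.78, 1.63, 0.68 and 1.69 FPKM, with ratios of 2.09 (1.41 to 3.15) and 2.49 (1.68 to 3.76). Trem3 was at 0.81, 2.49, 0.44 and 1.70 FPKM, with ratios of 3.07 (1.66 to 6.06) and 3.86 (1.67 to 10.4). The formyl peptide receptor genes Fpr1 and Fpr2 were the 2 receptor genes that stayed under 2-fold in both pairs. Fpr1 was at 2.57, 4.25, 3.69 and 6.29 FPKM, a ratio of 1.65 (1.18 to 2.33) with amiodarone alone, and Fpr2 was at 4.15, 6.33, 3.68 and 5.67 FPKM, a ratio of 1.53 (1.17 to 2.01). The median log2 ratio of the 12 receptor genes was 2.21 for amiodarone against vehicle and 2.11 for the combination against dabigatran.

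The enzyme and metabolism genes divided. Padi4, which citrullinates histones during the release of extracellular traps, was at 0.88 FPKM with vehicle and 1.31 with dabigatran, against 2.93 under amiodarone and 2.94 under the combination, with ratios of 3.33 (2.33 to 4.85) and 2.24 (1.65 to 3.09). Acod1, which makes itaconate in activated myeloid cells, had 4, 80, 0 and 30 reads. Its ratio with amiodarone alone was 18.7 (7.01 to 70.2). For the combination against dabigatran the ratio was 9.45 with the 0 reads set to 3, and no interval is given for it. Alox5ap, which presents arachidonic acid for leukotriene synthesis, was at 38.3, 68.2, 36.6 and 84.0 FPKM, with ratios of 1.78 (1.62 to 1.96) and 2.30 (2.09 to 2.53).

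G0s2 and Hdc were not higher with amiodarone alone. G0s2, an inhibitor of triglyceride lipase that adipocytes and other cells also make, was at 67.2 FPKM with vehicle and 72.2 with dabigatran, against 38.5 under amiodarone and 39.5 under the combination. Both libraries with amiodarone were below both without it, at 0.573 (0.516 to 0.637) and 0.547 (0.493 to 0.606). Hdc, which makes histamine, was at 41.1, 36.9, 36.2 and 42.4 FPKM, with opposite ratios of 0.897 (0.837 to 0.960) and 1.17 (1.09 to 1.25). Of the 8 mast cell and basophil markers, Mcpt8, Ms4a2, Fcer1a and Prss34 had under 10 reads in every library. Kit, which other lung cells also express, had 3613, 3366, 3718 and 3114 reads, Mcpt4 had 25, 28, 17 and 25, Cpa3 had 11, 3, 7 and 6, and Tpsb2 had 4, 1, 11 and 6. The summed level of the list was 42.8, 37.2, 43.3 and 34.4 FPKM, and the part of these cells in the Hdc values was not tested.

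**Figure D3:**
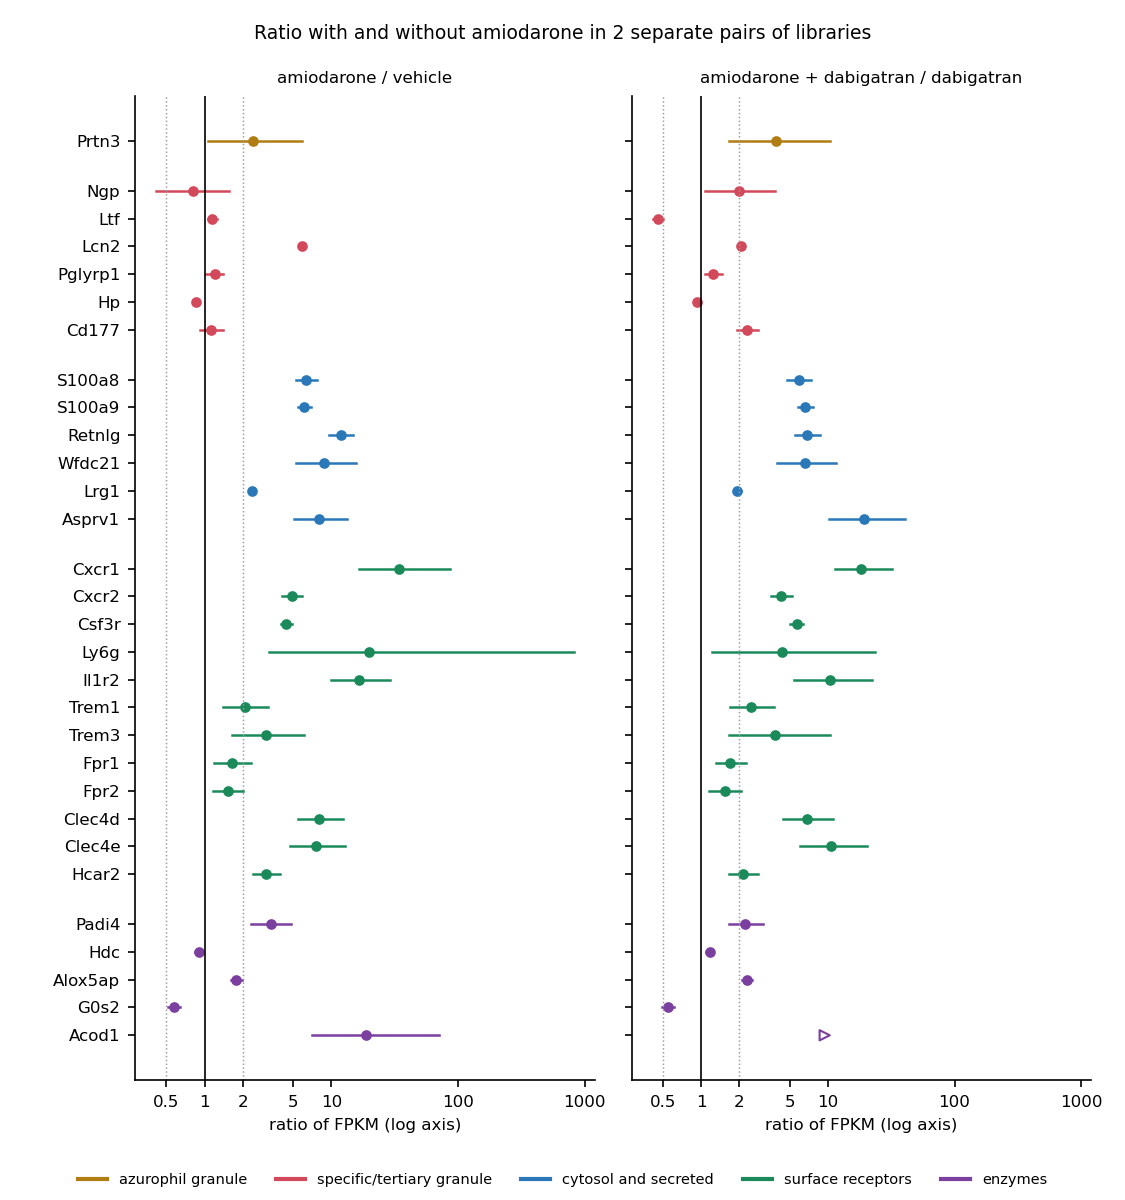
Ratio of FPKM on a log axis for each neutrophil gene with 10 or more reads, for amiodarone against vehicle (left) and amiodarone + dabigatran against dabigatran (right). Bars are 95% intervals for counting error, dotted lines mark 2-fold and the open triangle is a lower bound for Acod1. All 12 receptor genes lie above 1 in both panels, Ltf lies above 1 on the left and below 1 on the right, and G0s2 lies below 1 in both.

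Dabigatran alone left most neutrophil genes near their vehicle level. Of the 35 genes, Cxcr1 was at least 2-fold higher (1.18% of all 15129 genes were) and Asprv1 was at least 2-fold lower (1.26% of all genes), and both rest on few reads, with 17 reads against 7 for Cxcr1 at a ratio of 2.30 (0.905 to 6.55) and 10 against 21 for Asprv1 at 0.469 (0.197 to 1.04). Neither went beyond counting error. Beyond counting error were 2 higher genes, Ltf at 1.36 (1.26 to 1.47) and Fpr1 at 1.44 (1.01 to 2.05), against 13.9% of all genes, and 6 lower genes, against 12.4% of all genes. These 6 were S100a8 at 0.747 (0.570 to 0.978), S100a9 at 0.692 (0.588 to 0.814), Lrg1 at 0.760 (0.713 to 0.811), Csf3r at 0.719 (0.626 to 0.826), Hp at 0.942 (0.923 to 0.960) and Hdc at 0.879 (0.820 to 0.943). The median log2 ratio of the 29 genes with a ratio was -0.19, beside 0.00 for all genes.

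When dabigatran was added to amiodarone, the neutrophil genes did not move as a block. Against amiodarone alone, 3 of the 35 genes were at least 2-fold lower (1.52% of all 15152 genes) and none was at least 2-fold higher (1.87% of all genes). Beyond counting error 12 were lower (13.8% of all genes) and 6 were higher (19.4% of all genes), and 12 lay within it. This comparison shares the amiodarone library with the amiodarone and vehicle pair. The 3 genes at least 2-fold lower were Lcn2 at 0.348 (0.336 to 0.359), Il1r2 at 0.356 (0.281 to 0.448) and Acod1 at 0.375 (0.238 to 0.577), from the granule, receptor and enzyme groups. All 3 stayed above their vehicle level.

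The next lower ratios were those of Ltf at 0.540 (0.494 to 0.590), Retnlg at 0.579 (0.526 to 0.638), Hcar2 at 0.622 (0.515 to 0.749) and Lrg1 at 0.624 (0.598 to 0.652). S100a8 at 0.703 (0.633 to 0.779), Clec4d at 0.720 (0.589 to 0.877), S100a9 at 0.750 (0.705 to 0.797) and Cxcr2 at 0.786 (0.702 to 0.878) were lower by less. Csf3r was near its level with amiodarone alone, at 0.922 (0.868 to 0.980) in FPKM, and scaled by total reads instead its ratio was 0.991. In the same pair of libraries Cxcr1 was higher at 1.23 (1.04 to 1.45), Fpr1 at 1.48 (1.14 to 1.92), Cd177 at 1.66 (1.40 to 1.97), Alox5ap at 1.23 (1.14 to 1.33) and Hdc at 1.15 (1.07 to 1.23). Hp was 1.02 (1.0 to 1.05), the smallest of the 6 higher ratios, and turned to 0.997 when libraries were rescaled by the median ratio over genes. Within counting error lay Asprv1 at 1.12 (0.914 to 1.38), Clec4e at 0.914 (0.725 to 1.15), Padi4 at 1.0 (0.790 to 1.27), Trem1 at 1.04 (0.768 to 1.40) and Ngp at 1.77 (0.982 to 3.29), among others. Among the receptor genes, the interval of Il1r2 lay wholly below those of Csf3r and Cxcr1.

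Red cell and platelet markers differed between these libraries, in opposite directions. All 7 red cell markers were at least 2-fold lower with the combination than with amiodarone, where 1.52% of all genes were. Their summed level was 15786 FPKM with vehicle and 17538 with dabigatran, against 21410 under amiodarone and 8525 under the combination. All 7 platelet markers were higher with the combination than with amiodarone, with summed levels of 58.5, 37.3, 56.3 and 76.2 FPKM. No marker of either list was at 0 in any library. In amiodarone against vehicle, all 7 red cell markers had ratios above 1 and all 7 platelet markers had ratios below 1. The part of blood content in the neutrophil values was not tested in either comparison.

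**Figure D4:**
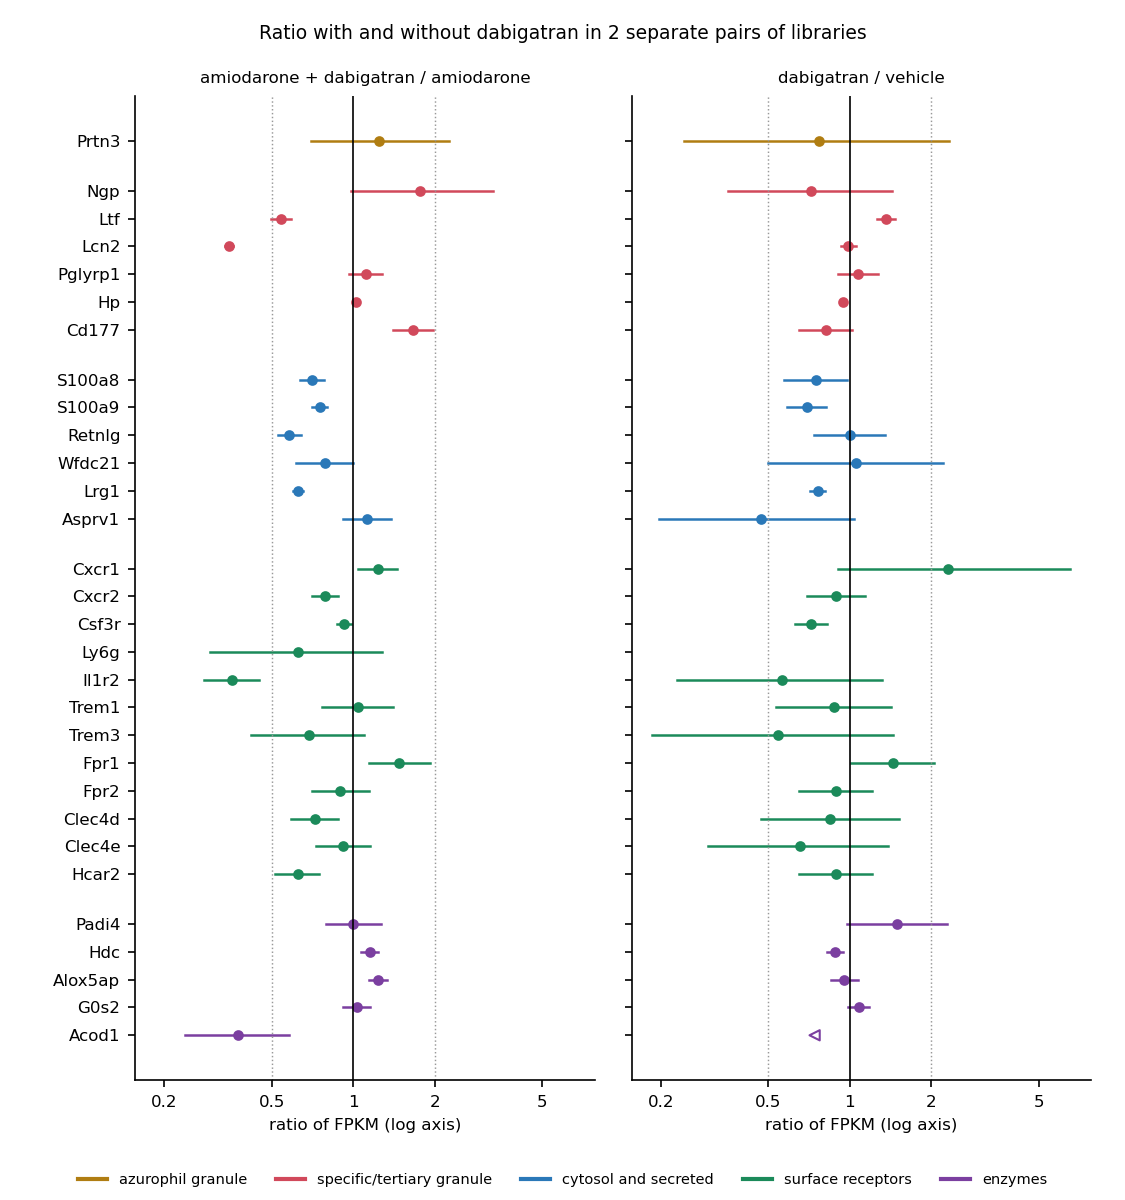
Ratio of FPKM on a log axis for each neutrophil gene with 10 or more reads, for amiodarone + dabigatran against amiodarone (left) and dabigatran against vehicle (right), with 95% intervals for counting error and dotted lines at 2-fold. The open triangle is an upper bound for Acod1. On the left Lcn2, Il1r2 and Acod1 lie below the lower dotted line while Fpr1 and Cd177 lie above 1, and on the right most intervals cross 1.

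Ratios between 2 genes were also taken within each library. Where other lung cells make one of the genes, as with Lcn2 and Ltf, such a ratio also moves with the amount of neutrophil transcripts. S100a9 over S100a8 was 2.01 (1.64 to 2.47) with vehicle and 1.86 (1.47 to 2.37) with dabigatran, against 1.95 (1.81 to 2.11) under amiodarone and 2.09 (1.90 to 2.29) under the combination, so these partners kept 1 ratio within counting error. Ngp over Csf3r, a precursor granule gene against a mature receptor gene, was 0.111 (0.0688 to 0.170), 0.0202 (0.0121 to 0.0316), 0.111 (0.0627 to 0.182) and 0.0388 (0.0268 to 0.0544). It was lower in both libraries with amiodarone than in both without it, and the intervals of the former did not overlap those of the latter. Ngp stayed at 16 to 34 reads per library, so this ratio mainly restates the higher Csf3r values. Whether it reflects the maturity of neutrophils was not tested. Il1r2 over Csf3r was 0.0690 (0.0391 to 0.113) with vehicle and 0.0541 (0.0257 to 0.101) with dabigatran, against 0.256 (0.225 to 0.290) under amiodarone and 0.0989 (0.0803 to 0.121) under the combination. The amiodarone library stood alone in this ratio, and the other 3 intervals overlapped.

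Cxcr1 over Cxcr2 was 0.141 (0.0557 to 0.299) with vehicle and 0.365 (0.206 to 0.608) with dabigatran, against 0.999 (0.865 to 1.15) under amiodarone and 1.56 (1.36 to 1.79) under the combination. The ratio was higher in both libraries with amiodarone than in both without it, and its level was highest in the combination. Lcn2 over S100a8 was 7.02 (5.88 to 8.43), 6.51 (6.08 to 6.98), 9.25 (7.56 to 11.4) and 3.22 (2.96 to 3.51), lowest in the combination. Ltf over Csf3r was 2.37 (2.13 to 2.64), 0.619 (0.578 to 0.662), 4.48 (4.0 to 5.04) and 0.363 (0.334 to 0.394).

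**Figure D5:**
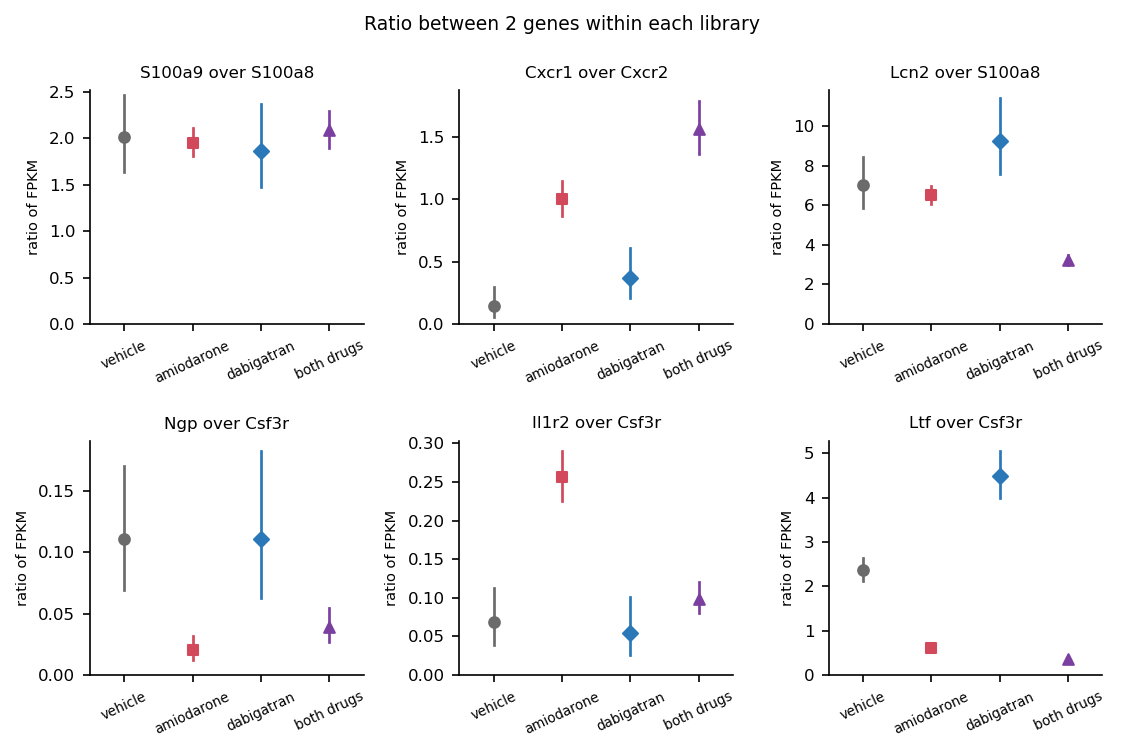
Ratio of the FPKM of 2 neutrophil genes within each of the 4 libraries, on linear axes from 0, with 95% intervals for counting error. S100a9 over S100a8 is level across the libraries, Ngp over Csf3r is lower in both libraries with amiodarone, and Il1r2 over Csf3r is highest with amiodarone alone.

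Other genes known in neutrophils also differed among themselves. Of 19 further granule and cytosol genes, 12 had 10 or more reads in at least 1 library. With amiodarone alone 6 were at least 2-fold higher (3.57% of all genes were) and none was at least 2-fold lower (3.54% of all genes). Among the 6, Stfa1 had only 1, 4, 0 and 10 reads and lay within counting error at 3.69 (0.365 to 182). Mmp8, the neutrophil collagenase, was at 1.5 FPKM with vehicle and 1.06 with dabigatran, against 9.23 under amiodarone and 7.88 under the combination, a ratio of 6.15 (4.71 to 8.15) with amiodarone alone. Stfa2l1, a stefin gene with close copies among which reads may have been split, was at 2.73, 15.9, 1.27 and 14.7 FPKM, a ratio of 5.82 (3.47 to 10.4). The precursor genes Ms4a3, Fcnb, Olfm4 and Cebpe had from 0 to 5 reads in every library. Stfa2, Stfa3 and BC100530 also stayed under 10 reads. Ltb4r1, the leukotriene B4 receptor, was within counting error at 0.861 (0.597 to 1.24), as was Serpinb1a, an inhibitor of neutrophil proteases, at 1.03 (0.899 to 1.19).

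All 10 genes of the NADPH oxidase, the adhesion molecules and the Fc receptors had ratios above 1 with amiodarone alone. Of these, 2 were at least 2-fold higher, as were 3.57% of all genes. Fcgr4 was at 3.64, 17.4, 3.68 and 18.4 FPKM and Fcgr3 at 14.2, 43.4, 12.4 and 45.3 FPKM, at 4.79 (3.74 to 6.21) and 3.06 (2.70 to 3.47). The oxidase subunit genes Cyba at 1.42 (1.33 to 1.51) and Ncf4 at 1.29 (1.07 to 1.56) gave the lowest ratios. Among 12 listed neutrophil chemokines and growth factors, 11 were in the table and Cxcl2, Cxcl3, Cxcl5, Csf3 and Il6 had under 10 reads in every library. Il1b was at 5.05, 14.2, 3.63 and 14.5 FPKM, a ratio of 2.81 (2.27 to 3.49), and Csf2 at 1.29, 3.10, 2.63 and 3.48 FPKM, a ratio of 2.40 (1.44 to 4.13). Ppbp, which platelets also make, was lower with amiodarone alone at 0.538 (0.469 to 0.618), and Cxcl15 of lung epithelium was at 1.05 (1.03 to 1.07). Of 7 transcription factor genes of granulocyte formation, Cebpd was at 47.1, 126, 37.1 and 95.2 FPKM, a ratio of 2.68 (2.54 to 2.83), and Gfi1 had 11, 24, 23 and 13 reads. Cebpa at 0.919 (0.873 to 0.967) and Runx1 at 0.891 (0.817 to 0.971) were slightly lower. They were the only 2 of the 7 with ratios below 1 with amiodarone alone. The other 5 had ratios above 1, and the median log2 ratio of the 7 was 0.30.

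Markers of other cells moved beside the neutrophil genes. Of 16 macrophage and monocyte markers, 9 were at least 2-fold higher with amiodarone alone (3.57% of all genes were) and none was at least 2-fold lower (3.54% of all genes). Their median log2 ratio was 1.05. Summed levels were 455 FPKM with vehicle and 494 with dabigatran, against 1467 under amiodarone and 1641 under the combination. Chil3 was the largest part of each sum. In the combination against amiodarone, 8 of the 16 markers had ratios above 1 and 8 below, with a median log2 ratio of 0.03. None of these markers was at 0. Chil3 was at 90.3, 731, 113 and 940 FPKM and Ly6c2 at 28.2, 115, 34.9 and 75.8 FPKM, while Csf1r at 1.05 (0.997 to 1.11) and Fabp4 at 0.857 (0.724 to 1.01) lay within counting error. The part of macrophages and monocytes in the cytosolic, secreted, receptor and enzyme values was not tested. Of the eosinophil markers, Prg2 and Ccr3 had 0 to 3 reads, Siglecf, which alveolar macrophages also express, had 86, 137, 107 and 263 reads, and Il5ra had 22, 6, 26 and 14. Of 8 proliferation markers, 2 were at least 2-fold higher with amiodarone alone, where 3.57% of all genes were. These were Ccnb1 with 33 reads against 14 and Birc5 with 68 against 36. In that pair 6 of the 8 had ratios above 1 and 2 below, with a median log2 ratio of 0.39 beside -0.06 for all genes. The summed level was 22.8, 22.6, 25 and 21.8 FPKM, of which Tyms alone was 13.1, 9.02, 10.3 and 9.22.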

How the data were processed

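Lung poly(A) RNA of 4 groups of mice was sequenced with DNBseq, 1 library per group. The authors mapped reads with HISAT 2.0.4 to GRCm38.p6 and with Bowtie2 2.2.5 to reference genes, and RSEM 1.2.8 gave the expression estimates. The deposited table has estimated counts of reads and a normalized value, read here as FPKM because reads per unit of value differed between the amiodarone and vehicle libraries by 1.07, the ratio of their total reads. The table also has 8 columns of means, each over 2 libraries, which were left out. RSEM divides reads that fit several genes or isoforms, and Cxcr2, Csf3r and Padi4 had counts that are not whole. Whether counting used the strand is not given in the sources used here, and Il1r2, Csf3r, Mpo, Acod1, Trem1 and Trem3 overlap non-coding genes. FPKM is printed to 0.01, which coarsens ratios of low genes.

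Groups came from the labels. Ratios of FPKM were computed for genes with 10 or more reads in at least 1 library, unless both libraries held 3 reads or fewer, and a library at 0 reads was set to 3 reads. Exact Clopper-Pearson intervals at 95% came from reads rounded to whole numbers (Python 3.11.15, scipy 1.17.1). Reads are not independent molecules, so intervals cover counting error only. The ratio procedure was tested on simulated data. All neutrophil genes are named. Genes of other lists were named only from the 2 highest and 2 lowest ratios of amiodarone to vehicle per list and markers under 10 reads. Not every such gene is printed, and Stfa1 is named besides because of its few reads. The genes and lists were chosen with earlier results of these data known. All 35 identifiers were found in the RefSeq table of GRCm38.p6. Promoter windows came from RefSeq, without the 50 bases after the start. Alternatives were other scalings, pseudocounts, read limits and a 1.5-fold limit.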

Additional observations from a re-analysis of the deposited data

Results flagged for a closer look

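Ltf and Hdc had opposite ratios in the 2 pairs of libraries that differ in amiodarone, each beyond counting error. Ltf was higher with amiodarone than with vehicle at 1.15 and lower with amiodarone + dabigatran than with dabigatran at 0.459. Hdc was lower in the former pair at 0.897 and higher in the latter at 1.17. With 1 library per group, these differences between pairs were not tested across animals.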

How the results depend on the processing

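No paired analysis was possible because each group has 1 library. The number of neutrophil genes past 2-fold stayed within 1.5 times its value in 24 of 28 comparisons with an alternative. For dabigatran against vehicle it was 2 as reported, 0 with a pseudocount of 1, 1 with a pseudocount of 0.1 and 5 at 1.5-fold (1 higher and 4 lower). For the combination against amiodarone it was 3 as reported and 10 at 1.5-fold (2 higher and 8 lower). Of 64 medians by gene group, 62 stayed between the medians of the lower and of the upper counting bounds of their genes. The other 2 came from a pseudocount of 1, which lowers the ratio of genes with low values by construction: 1.48 in place of 2.21 for the receptor genes with amiodarone against vehicle, and 0.61 in place of 1.17 for the enzyme genes in the combination against dabigatran. The receptor genes in the latter pair stayed between these wider bounds but were at 1.3 in place of 2.11. Over all genes the same pseudocount gave 249 higher and 72 lower calls for amiodarone against vehicle, in place of 542 and 537. Of 238 single ratios, Hp for the combination against amiodarone reversed, from 1.02 to 0.997, when libraries were rescaled by the median ratio over genes. Another 2 left their counting interval. Hp for amiodarone against vehicle went from 0.850 to 0.879 with the same rescaling. Csf3r for the combination against amiodarone went from 0.922 to 0.991 when scaled by total reads. Genes under 10 reads, among them Mpo, Elane and Camp, are limited by depth, and no alternative replaces replicates.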
